A study of Rattus norvegicus with 78 samples.

Results

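The metabotropic glutamate receptors described here are the products of Grm2, Grm3, Grm4, Grm5, Grm7 and Grm8, measured in rats of the Flinders Sensitive Line (FSL) and the Flinders Resistant Line (FRL). Every probeset that the array annotation gives to 1 of these 6 genes was taken, which gave 9 of the 31042 probesets on the Affymetrix rat genome array once control probesets were set aside. FSL and FRL rats descend from Sprague-Dawley stock bred selectively for high (FSL) or low (FRL) response to an anticholinesterase, and FSL rats are used as a genetic model of depression-like behaviour. The rats were adult males, and both cohorts had been put through a forced swim test before tissue was taken: 9 FSL and 12 FRL rats in cohort 1, and 8 FSL and 10 FRL rats in cohort 2. The right hippocampus (HIP) and the right frontal lobe, called prefrontal/frontal cortex (P/FC), gave 39 arrays each, 78 in all, with 17 FSL and 22 FRL arrays in each region. Both lines are selected breeding stocks and neither is an outbred or wild-type reference, so every difference below is 1 selected line against another. The labels do not say which P/FC and HIP arrays came from the same rat, and each region was processed separately, so region and processing cannot be told apart.

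Metabotropic glutamate receptors are G protein-coupled receptors that tune synaptic transmission rather than carry it. Grm5 encodes mGlu5 of group I, which sits mainly on the postsynaptic side, couples to Gq, phospholipase C and calcium release, and is tied to the postsynaptic density through Homer and Shank proteins. Grm2 and Grm3 encode the group II receptors and Grm4, Grm7 and Grm8 the group III receptors, all coupled to Gi/o proteins and to inhibition of adenylyl cyclase. Group II and III receptors act largely on presynaptic terminals to hold back transmitter release, and mGlu3 is also made by astrocytes.

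Grm5 was lower in FSL rats in HIP with both of its probesets. In P/FC it was lower with the brighter of them, whose change was the largest of any member in each region and passed by itself in cohort 2 but not in cohort 1. Grm7 and 1 of the probesets for Grm8 were higher in FSL rats in P/FC, though both calls depended on how RNA quality and astrocyte markers were treated. Grm2, Grm3 and Grm4 did not pass the test between lines in either region, but all 3 were higher in P/FC than in HIP. Values are intensities on the linear scale as deposited, and changes are log2 differences from limma with p-values adjusted by the Benjamini-Hochberg method over every probeset kept in that region. A probeset was tested where 50% or more of the FSL arrays and 50% or more of the FRL arrays exceeded 30. By that filter 8 of the 9 were kept in each region, out of 22370 kept probesets in P/FC and 21630 in HIP. Tissue was analysed in bulk, so fewer cells of a type and less RNA per cell cannot be told apart. The paper also could not exclude that sequence polymorphisms gave some of the differences between lines, and this was not tested here.

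Promoter sequence is shown for the 3 genes whose probesets changed between lines, since the reference table held a window for these and none for Grm2, Grm3 or Grm4. Each line gives the 250 bases before the RefSeq gene start on build GRCr8, 5′ to 3′ on the strand of the gene, with matches to the motif GGGCGG or its complement CCGCCC, the GC box, in capitals. The Grm5 window lies at chr1:150733503-150733752 on the plus strand, the Grm7 window at chr4:145286476-145286725 on the plus strand and the Grm8 window at chr4:57687507-57687756 on the minus strand.
Grm5: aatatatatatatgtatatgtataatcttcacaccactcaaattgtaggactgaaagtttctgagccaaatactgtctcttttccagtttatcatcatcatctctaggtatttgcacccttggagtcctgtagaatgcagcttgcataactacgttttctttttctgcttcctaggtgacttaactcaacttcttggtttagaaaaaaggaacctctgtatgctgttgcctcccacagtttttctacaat
Grm7: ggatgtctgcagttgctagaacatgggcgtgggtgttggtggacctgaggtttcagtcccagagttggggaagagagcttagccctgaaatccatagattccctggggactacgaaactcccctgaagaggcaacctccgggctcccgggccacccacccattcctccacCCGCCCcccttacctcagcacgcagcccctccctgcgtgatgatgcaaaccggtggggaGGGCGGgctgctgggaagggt
Grm8: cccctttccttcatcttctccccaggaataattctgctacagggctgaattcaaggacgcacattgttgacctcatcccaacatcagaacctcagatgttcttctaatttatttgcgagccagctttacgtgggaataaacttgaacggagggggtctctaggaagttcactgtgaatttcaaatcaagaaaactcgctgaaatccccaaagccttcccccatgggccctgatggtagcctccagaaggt
The Grm7 window held 2 GC boxes and had a GC content of 62%. The Grm8 window, at 47.2% GC, and the Grm5 window, at 36.4% GC, held none. A GC box on either strand was found in 30.5% of the 33469 RefSeq windows of the same length. The TATA box TATAAA, found in 12.9% of all windows, the CCAAT box, found in 34%, and the cyclic AMP response half-site TGACG, found in 18.2%, were searched on both strands and were in none of the 3 windows.

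Grm5 was read by a brighter probeset (1393665_at) and by a dimmer probeset (1369355_at), both above 30 in 100% of the arrays. For the brighter probeset in P/FC, FSL arrays of cohort 1 had a lowest, median and highest intensity of 126, 168 and 192, against 102, 220.4 and 304 in FRL arrays. In cohort 2 the FSL arrays had 90.1, 116 and 142, against 155, 251 and 308 in FRL arrays. In cohort 2 every FSL array was below every FRL array, whereas in cohort 1 the FRL arrays reached both above and below the FSL arrays.

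In HIP, the brighter Grm5 probeset had 125, 152 and 168 in the FSL arrays of cohort 1, against 138, 237 and 358 in FRL arrays. In cohort 2 the FSL arrays had 134, 147 and 159, against 190.3, 274 and 342 in FRL arrays. The lines were again fully separated in cohort 2 and overlapped in cohort 1. Such full separation of the lines in cohort 2 was seen for 0.554% of kept probesets in P/FC and 0.573% in HIP. All 17 FSL arrays were below the FRL median in P/FC, and all 17 were below it in HIP, while 14 of 22 FRL arrays in P/FC and 18 of 22 in HIP were above the highest FSL array.

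**Figure D1:**
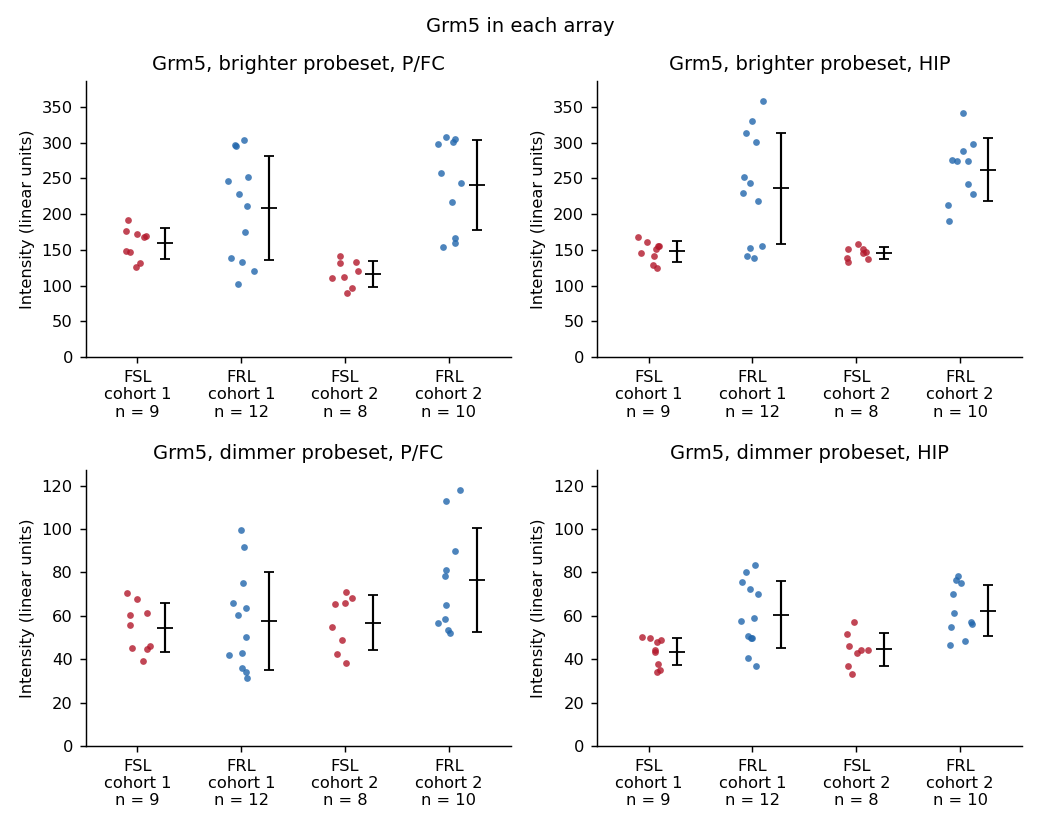
Intensity of both Grm5 probesets in each array (points), with the mean and SD of each line and cohort beside them (black), P/FC on the left and HIP on the right. The FSL arrays of the brighter probeset are tightly grouped, and the FRL arrays spread upward to 358 in HIP with some at the FSL level in cohort 1.

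Over both cohorts the brighter Grm5 probeset was lower by a log2 change of -0.66 (SE 0.125, adjusted p = 2.83e-04) in P/FC and -0.72 (SE 0.0995, adjusted p = 2.86e-06) in HIP, or 0.633-fold and 0.608-fold. Averaged as intensities, it was 139 ± 29.2 in FSL arrays and 224 ± 69.3 in FRL arrays of P/FC (SD, n = 17 and 22). In HIP it was 147 ± 11.6 in FSL arrays and 248 ± 64.8 in FRL arrays (SD, n = 17 and 22). By cohort, the P/FC change was -0.31 (adjusted p = 0.273) in cohort 1 and -1.01 (adjusted p = 6.02e-04) in cohort 2, and the HIP change was -0.60 (adjusted p = 0.00691) in cohort 1 and -0.83 (adjusted p = 3.96e-04) in cohort 2. The HIP call of cohort 1 was lost under 3 of 12 alternatives, with an adjusted p of up to 0.0691. Of all kept probesets, 7.8% in P/FC and 2.36% in HIP passed in cohort 1, and 3.78% in P/FC and 2.33% in HIP passed in cohort 2. The P/FC change was larger in cohort 2 than in cohort 1 by -0.70 (95% interval -1.20 to -0.20), with p = 0.00776 before and 0.998 after adjustment in limma.

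The dimmer Grm5 probeset was also lower in HIP over both cohorts, by -0.46 (SE 0.0943, adjusted p = 0.00102), and the change was -0.20 (SE 0.136, adjusted p = 0.312) in P/FC. In HIP its FSL arrays had a lowest, median and highest intensity of 32.9, 44.4 and 57.1, against 36.9, 58.2 and 83.6 in FRL arrays, and all 17 FSL arrays were below the FRL median. In P/FC its FSL arrays had 38.4, 55.8 and 71.1, against 31.2, 61.9 and 118 in FRL arrays, with 11 of 17 FSL arrays below the FRL median. The lines overlapped in both regions and both cohorts. Within cohorts no change of the dimmer probeset passed: it was -0.01 in cohort 1 and -0.40 in cohort 2 of P/FC, and -0.45 (adjusted p = 0.0523) in cohort 1 and -0.48 (adjusted p = 0.0522) in cohort 2 of HIP. These HIP values lay at the threshold, since leaving out any 1 of 7 arrays for cohort 1, or any 1 of 9 for cohort 2, brought the adjusted p below 0.05. With other arrays left out the adjusted p rose to as much as 0.103 for cohort 1 and 0.134 for cohort 2. The 95% interval of its P/FC change over both cohorts, -0.48 to 0.07, overlapped that of the brighter probeset, -0.91 to -0.41. Both probesets were read in the same arrays, so these intervals do not compare them. Their ratio within arrays, given below, does.

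The FRL arrays, not the FSL arrays, carried most of the variation in the brighter Grm5 probeset. The coefficient of variation in P/FC was 13.7% in FSL and 35.1% in FRL arrays of cohort 1, and 15.5% in FSL and 26.2% in FRL arrays of cohort 2. In HIP it was 9.68% in FSL and 32.9% in FRL arrays of cohort 1, and 5.8% in FSL and 17.0% in FRL arrays of cohort 2. In HIP of cohort 1 a group of 4 FRL arrays, at 138, 142, 153 and 156, lay within the FSL range, and the next FRL array stood 1.4-fold above them at 218. In P/FC of cohort 1, 4 FRL arrays reached at most 139 and the next stood at 175. In P/FC of cohort 2, 3 FRL arrays at 155, 160.0 and 167 were above the FSL arrays and below the other 7 FRL arrays, which began at 216. These groups of arrays were noticed in the data, and no test was made between them. A wider spread in FRL arrays was not particular to Grm5. In P/FC, with cohorts together, the SD was 48.0 in FSL and 73.1 in FRL arrays for Grm3, and 13.0 and 22.6 for Grm7. It was wider in FSL arrays for the kept Grm8 probesets, at 12.5 against 9.89 and 20.5 against 17.4. The spread of all kept probesets was not compared between lines.

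Both Grm5 probesets moved together from array to array. After the mean of each line and cohort was taken away, Pearson's r was 0.76 in P/FC and 0.80 in HIP (n = 39 arrays each, permutation p = 1e-05 for both, the smallest that the resampling can give, 2e-05 after adjustment over 4 relations). Spearman's rho was 0.76 in P/FC and 0.77 in HIP, with the same p-values. Without the 2 arrays farthest from the median, r was 0.70 in P/FC and 0.78 in HIP. Without the FRL arrays of cohort 1, where groups of arrays had been noticed, r was 0.73 in P/FC and 0.65 in HIP (n = 27 arrays each). The FRL arrays of cohort 2 in P/FC, where a gap was also noticed, were kept in this calculation. Within the FRL arrays r lay between 0.78 and 0.92. In FSL arrays it was 0.17 in cohort 1 and 0.82 in cohort 2 of P/FC, and 0.35 in cohort 1 and 0.68 in cohort 2 of HIP.

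**Figure D2:**
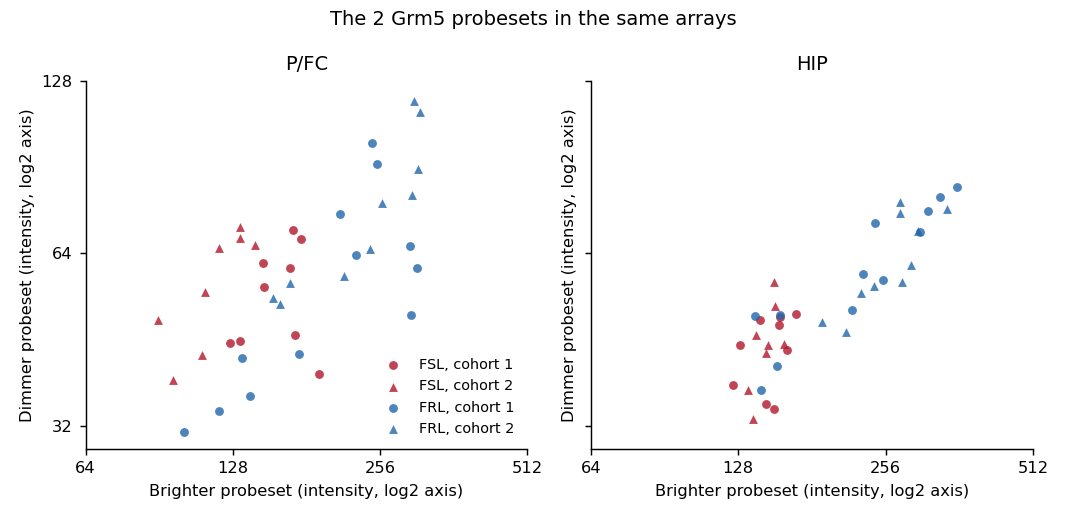
Intensity of the dimmer against the brighter Grm5 probeset in the same arrays, on log2 axes, P/FC on the left and HIP on the right, with lines in colour and cohorts by symbol. The points rise together in both panels, and at an equal level of the dimmer probeset the FSL arrays of cohort 2 in P/FC lie to the left of the FRL arrays.

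The size of the FSL change differed between the probesets of Grm5. The log2 ratio of the dimmer to the brighter probeset within an array was -1.06 ± 0.20 in FSL and -1.67 ± 0.20 in FRL arrays of cohort 2 in P/FC (SD, n = 8 and 10), a difference of 0.61 (two-sided exact permutation test, p = 9.14e-05, 7.31e-04 after adjustment over 8 tests). In cohort 2 of HIP it was -1.73 ± 0.20 in FSL and -2.08 ± 0.16 in FRL arrays, a difference of 0.35 (exact permutation p = 0.00119, adjusted p = 0.00475). All 8 FSL arrays were above the FRL median in each case. In cohort 1 the difference ran the same way, at 0.30 (exact permutation, adjusted p = 0.131) in P/FC and 0.16 (adjusted p = 0.177) in HIP, and did not pass. When both probesets were averaged, Grm5 was lower by -0.43 (limma, adjusted p = 0.0108) in P/FC and -0.59 (adjusted p = 1.88e-05) in HIP.

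RNA quality and the markers of several cell types also moved with line. The 3′ to 5′ ratio of the Gapdh control probesets was lower in FSL than in FRL arrays in P/FC of cohort 1 (log2 ratio 0.74 against 0.83, exact permutation test, adjusted p = 0.0198). The same ratio for Actb was lower in FSL than in FRL arrays in HIP of cohort 1 (0.60 against 0.72, adjusted p = 0.00359) and cohort 2 (0.73 against 0.82, adjusted p = 0.0170). The other tests of these ratios leaned the same way and did not pass. The adjusted p for Gapdh was 0.0582 in P/FC of cohort 2, and 0.220 and 0.268 in HIP of cohorts 1 and 2. For Actb it was 0.0612 and 0.762 in P/FC of cohorts 1 and 2. Of 6 astrocyte markers (Gfap, Aqp4, Slc1a3, Aldh1l1, Gja1 and Fgfr3) 6 were lower in FSL rats in P/FC and 5 in HIP, with none of the 6 at 0. Their summed intensity ranged over 7062 to 9411 in FSL and 7224 to 11337 in FRL arrays of P/FC, and over 10022 to 11056 in FSL and 10206 to 12464 in FRL arrays of HIP. Of 4 neuron markers 2 were higher in FSL rats in both regions, Syt1 by 0.39 in P/FC and 0.25 in HIP and Stmn2 by 0.29 in P/FC and 0.20 in HIP. Rbfox3 and Snap25 did not pass in either region. In HIP they leaned lower, by -0.15 for Rbfox3 (limma, adjusted p = 0.170) and -0.0054 for Snap25 (adjusted p = 0.935). Of 5 endothelial markers 3 were lower in P/FC (Vwf by -0.60, Tek by -0.28 and Cldn5 by -0.28) and 1 in HIP (Cldn5 by -0.13). Of 5 microglial markers Csf1r (-0.29) and Ctss (-0.28) were lower in P/FC, and in HIP Ctss (-0.17) was lower and P2ry12 (0.20) higher. In P/FC the summed intensity ranged over 9383 to 11809 in FSL and 8798 to 11825 in FRL arrays for the neuron markers, and over 695 to 933 in FSL and 743 to 1298 in FRL arrays for the endothelial markers. The part of neuronal, endothelial and microglial content in the members' changes was not tested. The brighter Grm5 probeset remained lower with the Gapdh ratio as a covariate, by -0.69 (limma, adjusted p = 0.00370) in P/FC and -0.72 (adjusted p = 1.18e-05) in HIP. It remained lower with the astrocyte score, a covariate added after the data were seen, by -0.78 (adjusted p = 0.00338) in P/FC and -0.89 (adjusted p = 5.07e-04) in HIP.

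Striatal markers varied widely among the P/FC arrays, and mGlu5 is abundant in striatum. Of 7 striatal markers, 6 had a probeset, and 2 of them, Drd1 and Tac1, were higher in FSL rats in P/FC, with a summed intensity of 619 to 3912 in FSL and 455 to 3726 in FRL arrays. None of the 6 was at 0. Most of this change lay in cohort 1, where all 6 had an unadjusted p under 0.05 in limma, against none in cohort 2. Drd1 changed by 1.24 in cohort 1 and 0.27 in cohort 2, and Tac1 by 1.44 in cohort 1 and 0.34 in cohort 2. With the striatal and meningeal scores as covariates the P/FC change of the brighter Grm5 probeset was -0.71 (limma, adjusted p = 6.84e-04) over both cohorts, -0.39 (adjusted p = 0.352) in cohort 1 and -1.03 (adjusted p = 9.02e-04) in cohort 2.

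The members' counts were read against those of all kept probesets. Over both cohorts 3 of 8 tested member probesets passed in P/FC (2 higher and 1 lower), where 18.6% of all kept probesets passed, 9.76% as higher and 8.86% as lower. In HIP 2 of 8 passed, both for Grm5 and both lower, where 7.33% of kept probesets passed, 3.2% as higher and 4.13% as lower. The median change of the 8 was -0.09 in P/FC and -0.13 in HIP, beside 0.0019 in P/FC and -0.0016 in HIP over all kept probesets. Within cohorts the brighter Grm5 probeset was the 1 member that passed in HIP of cohort 1 and in each region of cohort 2. No member passed in limma in P/FC of cohort 1, where 3 of 8 had an unadjusted p under 0.05, beside 23.1% of kept probesets. For the difference of the line change between cohorts 0% of kept probesets passed the adjustment in either region. At an unadjusted p under 0.05, 1 of 8 members and 4.63% of kept probesets differed between cohorts in P/FC, and 0 of 8 members and 4.33% of kept probesets in HIP.

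**Figure D3:**
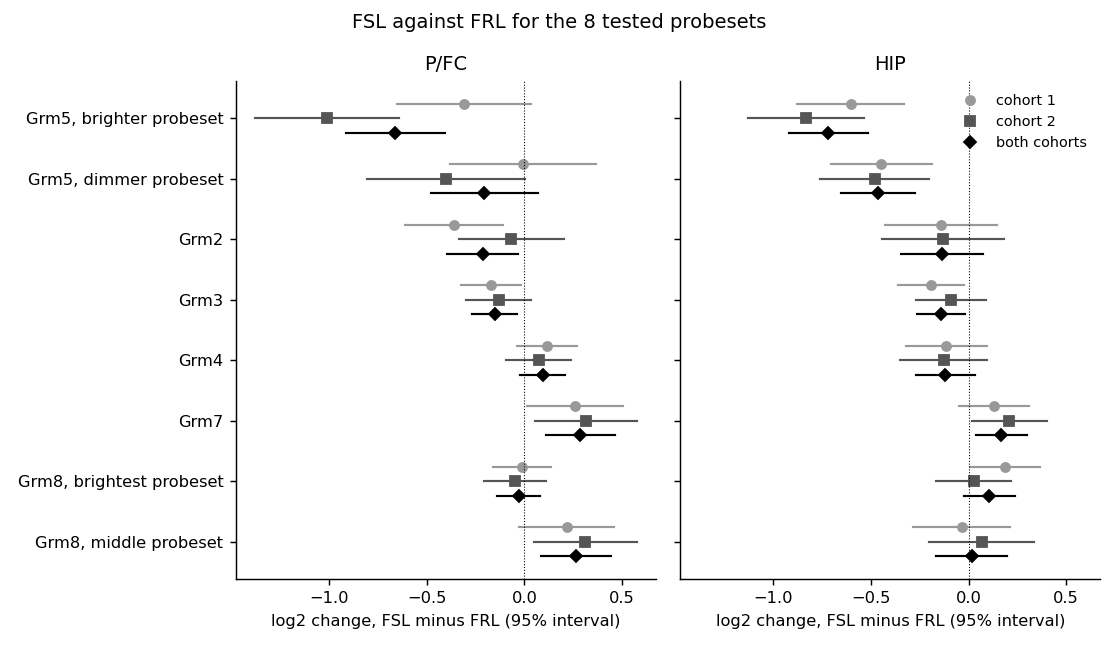
log2 change of FSL against FRL with its 95% interval for the 8 tested probesets, P/FC on the left and HIP on the right, by cohort (grey) and over both cohorts (black). The brighter Grm5 probeset lies farthest to the left in both panels, and the intervals of Grm7 and of the middle Grm8 probeset over both cohorts lie above 0 in P/FC.

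Neither group II receptor passed the test between lines in either region. Grm2 (1370998_at), the presynaptic autoreceptor mGlu2, had a lowest, median and highest intensity of 107, 228 and 275 in FSL arrays of P/FC, against 169.8, 239.6 and 327 in FRL arrays. In HIP it had 74.1, 140.5 and 192 in FSL arrays, against 98.3, 155 and 219 in FRL arrays. The lines overlapped widely, and 7 FRL arrays in P/FC were above every FSL array. The change over both cohorts was -0.21 (95% interval -0.40 to -0.03, adjusted p = 0.0928) in P/FC and -0.14 (-0.35 to 0.08, adjusted p = 0.501) in HIP. In P/FC it was -0.36 (adjusted p = 0.0620) in cohort 1 and -0.07 in cohort 2. Without replicate 7 of the FRL arrays of cohort 1, the P/FC change was -0.24 with an adjusted p of 0.0421, and with the astrocyte score as a covariate it was -0.41 (adjusted p = 0.0458). It did not pass in the other fits that left out 1 array, with an adjusted p of up to 0.153.

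Grm3 (1388189_at), encoding mGlu3 of neurons and astrocytes, had a lowest, median and highest intensity of 391, 490.2 and 577 in FSL arrays of P/FC, against 434, 523 and 703 in FRL arrays. In HIP it had 287, 332 and 407 in FSL arrays, against 265, 388 and 514 in FRL arrays. In P/FC 9 FRL arrays were above every FSL array, and 13 of 17 FSL arrays were below the FRL median. The change was -0.15 in P/FC (95% interval -0.27 to -0.04, adjusted p = 0.0516) and -0.14 in HIP (-0.26 to -0.02, adjusted p = 0.164). The P/FC change stood at the edge of the threshold: leaving out any 1 of 11 arrays brought the adjusted p below 0.05. Over the 39 such fits the adjusted p ranged from 0.0243 to 0.0884. Of 13 alternatives 4 also brought it below 0.05, at 0.0310 to 0.0481. With the astrocyte score the P/FC change was -0.096 (adjusted p = 0.672). With the astrocyte score as a covariate the HIP change was 0.036 (adjusted p = 0.896).

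Among the group III receptors, Grm7 (1369781_at), encoding the low-affinity presynaptic receptor mGlu7, was higher in FSL rats in P/FC. Its lowest, median and highest intensities in P/FC were 91.2, 119 and 142 in FSL arrays, against 59.2, 91.7 and 139.8 in FRL arrays. In HIP they were 92.9, 123 and 145 in FSL arrays, against 77.6, 110.4 and 130.3 in FRL arrays. In P/FC 16 of 17 FSL arrays were above the FRL median, and the FRL arrays reached well below them. The change was 0.29 (SE 0.0884, adjusted p = 0.0196) in P/FC, with 0.26 in cohort 1 and 0.32 in cohort 2, neither of which passed on its own (adjusted p = 0.185 and 0.157). In HIP it was 0.17 (95% interval 0.04 to 0.30, adjusted p = 0.109). With the Gapdh ratio as a covariate the P/FC change was 0.09 (adjusted p = 0.660), and with the astrocyte score it was 0.05 (adjusted p = 0.913).

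Grm4 (1368690_a_at), encoding mGlu4, had a lowest, median and highest intensity of 115, 160.2 and 200.4 in FSL arrays of P/FC, against 109, 141 and 205 in FRL arrays. In HIP it had 58.8, 86.3 and 119 in FSL arrays, against 69.2, 91.1 and 176 in FRL arrays. The lines overlapped in both regions, and 1 FRL array of cohort 2 in HIP stood apart at 176. The change was 0.09 (95% interval -0.02 to 0.21, adjusted p = 0.258) in P/FC and -0.12 (-0.27 to 0.03, adjusted p = 0.382) in HIP.

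Grm8, encoding mGlu8, was read by 3 probesets that did not give the same result: the brightest (1371242_at), a middle one (1369391_at) and the dimmest (1371243_at). The middle probeset in P/FC had a lowest, median and highest intensity of 57.7, 105 and 132 in FSL arrays, against 50.3, 83.1 and 111 in FRL arrays. In HIP it had 23.0, 46.4 and 58.0 in FSL arrays, against 24.3, 42.6 and 57.1 in FRL arrays. In P/FC 14 of 17 FSL arrays were above the FRL median and 4 were above every FRL array, while the lines overlapped almost wholly in HIP. It was higher in FSL rats in P/FC, by 0.26 (SE 0.0885, adjusted p = 0.0317), and the HIP change was 0.02 (95% interval -0.17 to 0.20). The P/FC call was lost without replicate 3 of the FRL arrays of cohort 2, replicate 6 or 8 of the FSL arrays of cohort 1 or replicate 5 of the FSL arrays of cohort 2, with adjusted p up to 0.0531. With the Gapdh ratio as a covariate the change was 0.21 (adjusted p = 0.307), and with the astrocyte score it was -0.0072 (adjusted p = 0.993).

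The brightest Grm8 probeset had a lowest, median and highest intensity of 77.4, 93.7 and 114 in FSL arrays of P/FC, against 75.5, 95.1 and 114 in FRL arrays. In HIP it had 91.5, 136 and 162 in FSL arrays, against 90.3, 123 and 174 in FRL arrays. Its change was -0.03 (95% interval -0.14 to 0.08, adjusted p = 0.753) in P/FC and 0.11 (-0.02 to 0.24, adjusted p = 0.365) in HIP. When the brightest and middle probesets were averaged, Grm8 did not pass in either region. The change was then 0.12 (limma, adjusted p = 0.124) in P/FC and 0.06 (adjusted p = 0.541) in HIP. The dimmest Grm8 probeset was not kept: it exceeded 30 in 47.1% of FSL and 18.2% of FRL arrays of P/FC and in 0% of HIP arrays. Fitted without a filter, its P/FC change was 0.25 (95% interval -0.01 to 0.51, adjusted p = 0.206).

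**Figure D4:**
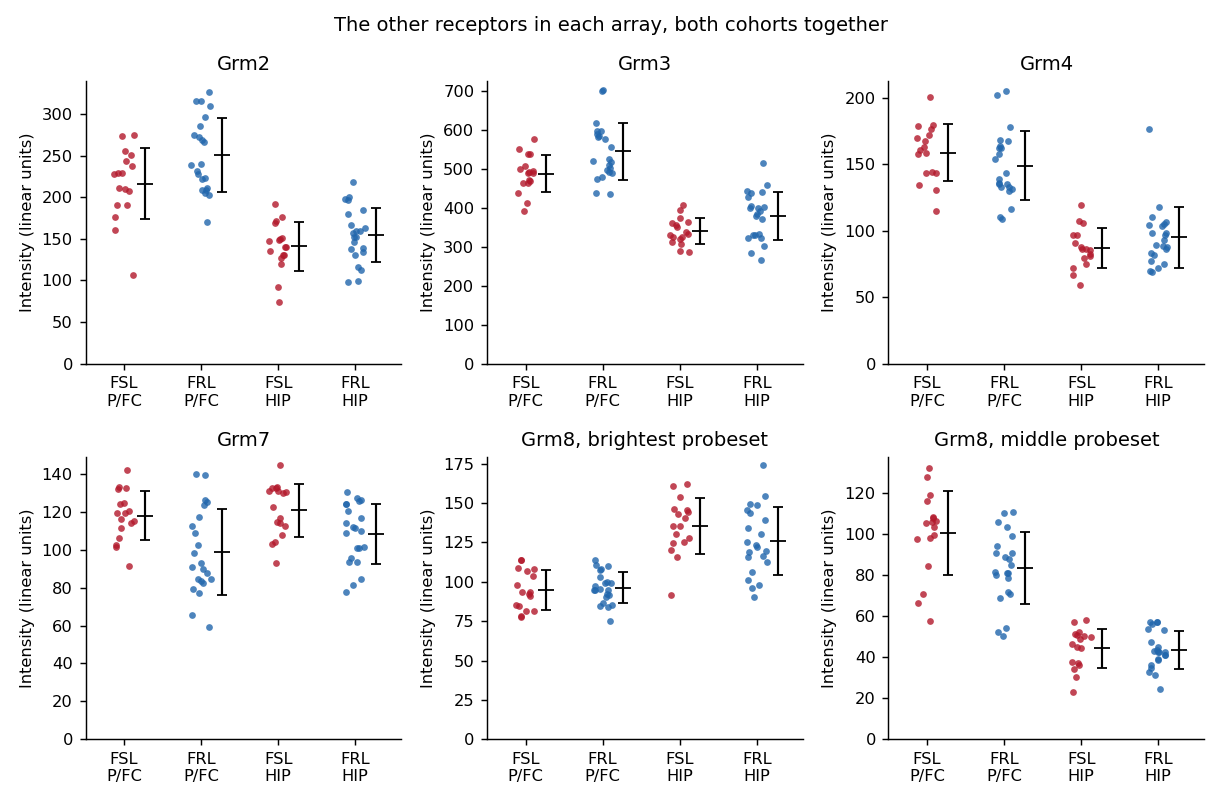
Intensity of Grm2, Grm3, Grm4, Grm7 and both kept Grm8 probesets in each array (points), both cohorts together, with the mean and SD of each group (black). FSL stands left of FRL within P/FC and within HIP, and in each panel the lines overlap, with 16 of 17 FSL arrays of Grm7 in P/FC above the FRL median.

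Unlike those of Grm5, the kept Grm8 probesets did not vary together: r was 0.03 in P/FC and -0.24 in HIP (n = 39 arrays each, permutation p = 0.864 and 0.135, adjusted p = 0.864 and 0.181), and rho was 0.11 and -0.23. Without the 2 farthest arrays r was -0.06 in P/FC and -0.17 in HIP. The within-array ratio of the middle to the brightest probeset was higher in FSL than in FRL arrays in P/FC of cohort 2 (0.23 ± 0.26 against -0.13 ± 0.21, SD, n = 8 and 10, exact permutation test, adjusted p = 0.0171). The other 3 comparisons of this ratio gave 0.23 in P/FC of cohort 1, -0.22 in HIP of cohort 1 and 0.04 in HIP of cohort 2, with adjusted p of 0.252, 0.310 and 0.774.

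Between regions, Grm2, Grm3 and Grm4 were higher in P/FC than in HIP, while the probesets of Grm8 differed in opposite directions and those of Grm5 and Grm7 rested on the scaling. Over the 78 arrays, taken as independent, 5 of the 8 tested probesets were higher in P/FC than in HIP, 1 was lower and 2 did not pass. Of the 20963 probesets kept in both regions 69.6% passed, 48.5% as higher and 21.1% as lower, so a difference between regions was the common case. The members' median difference was 0.36 and that of all probesets 0.08.

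The middle Grm8 probeset differed most, with a lowest, median and highest intensity of 50.3, 90.9 and 132 in P/FC against 23.0, 43.5 and 58.0 in HIP, and 35 of 39 P/FC arrays above every HIP array. Its difference was 1.06 (SE 0.0641, adjusted p = 3.43e-25). Grm4 had 109, 157 and 205 in P/FC against 58.8, 87.6 and 176 in HIP (0.77, adjusted p = 1.00e-24), and all 39 P/FC arrays were above the HIP median. Grm2 had 107, 229 and 327 in P/FC against 74.1, 148 and 219 in HIP (0.66, adjusted p = 1.82e-13). Grm3 had 391, 503 and 703 in P/FC against 265, 356 and 514 in HIP (0.53, adjusted p = 2.79e-19). The ranges of these probesets overlapped between regions, as did those of every other member, while 2.95% of all probesets kept in both had no overlap.

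Grm8 again depended on the probeset, since its brightest one was lower in P/FC, at 75.5, 94.8 and 114 against 90.3, 130.2 and 174 in HIP (-0.45, SE 0.0421, adjusted p = 1.13e-15). The brighter Grm5 probeset had 90.1, 168 and 308 in P/FC against 125, 161 and 358 in HIP, a difference of -0.14 (95% interval -0.31 to 0.02, adjusted p = 0.106). The dimmer one differed by 0.20 (adjusted p = 0.0323). Grm7 had 59.2, 111.5 and 142 in P/FC against 77.6, 114 and 145 in HIP, a difference of -0.09 (-0.20 to 0.02, adjusted p = 0.134). After quantile normalisation of all 78 arrays together the brighter Grm5 probeset (-0.24) and Grm7 (-0.18) were lower in P/FC and the dimmer Grm5 probeset (0.10, adjusted p = 0.315) did not pass, which left 4 of 8 higher and 3 lower.

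**Figure D5:**
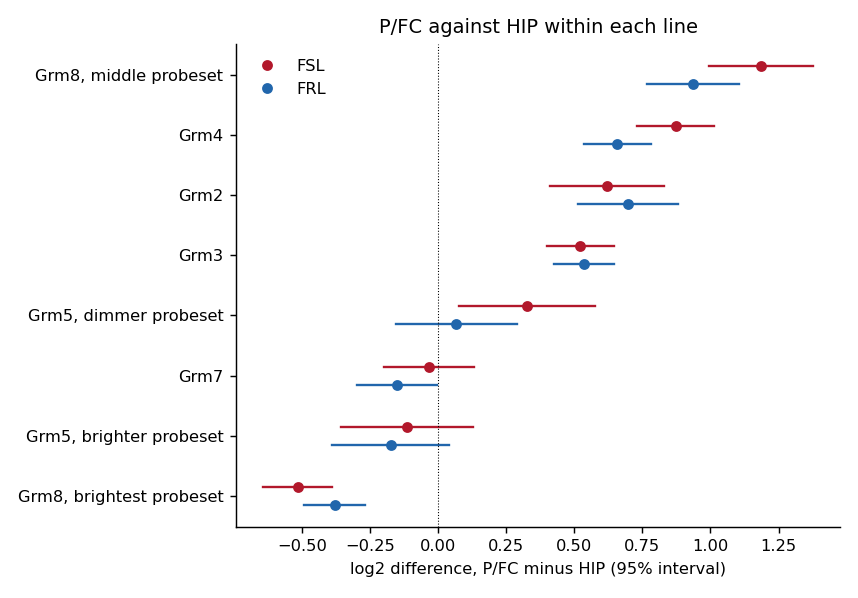
log2 difference of P/FC minus HIP with its 95% interval for the 8 tested probesets, within FSL and within FRL rats. The middle Grm8 probeset lies at 1.18 in FSL and 0.94 in FRL rats, and the brightest Grm8 probeset lies below 0 in both lines.

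The difference between regions was found in each line by itself for the middle and brightest Grm8 probesets, Grm4, Grm2 and Grm3, where 56.9% of probesets passed within FSL rats and 60.7% within FRL rats. The dimmer Grm5 probeset passed within FSL rats (0.33, adjusted p = 0.0223) and not within FRL rats (0.07, adjusted p = 0.617). The line change did not differ between regions for any member after adjustment. The smallest adjusted p was 0.561 for Grm4, whose change was larger in P/FC than in HIP by 0.21 (95% interval 0.03 to 0.40, unadjusted p = 0.0266). This test was passed by 0.0668% of the probesets kept in both regions. For the brighter Grm5 probeset the interval of the difference, P/FC minus HIP, ran from -0.26 to 0.38.

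Among genes that act with these receptors, the scaffold genes Shank1 and Shank2 were lower in FSL rats in both regions. The HIP calls of both were lost with the astrocyte score as a covariate. At least 1 of their P/FC calls was lost with that score, and at least 1 with the Gapdh ratio. With the Actb ratio at least 1 of their HIP calls was lost. Each of these genes, and each cell type marker above, was read only by its brightest probeset in the region. Agreement with their other probesets was not tested. Of 48 genes chosen for the scaffolds, G proteins, effectors, desensitisation and glutamate supply, 42 were kept in P/FC, with 5 higher, 10 lower and 27 not passed. In HIP 41 were kept, with 1 higher, 4 lower and 36 not passed. These counts stand beside the 18.6% and 7.33% of all kept probesets called in P/FC and HIP. The calls depended on covariates: with the Gapdh ratio 1 of the 42 genes passed in P/FC, beside 3.81% of all kept probesets, and with the striatal and meningeal scores 5 passed, beside 11.8%. In HIP 1 of the 41 passed with the Actb ratio, beside 2.04% of all kept probesets, and none with the astrocyte score, beside 1.37%.

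Of the 14 genes for scaffolds, all kept in P/FC, 4 were lower and none higher. Shank1, a master scaffold of the postsynaptic density that is linked to mGlu5 through Homer, had a lowest, median and highest intensity of 1316, 1453 and 1762 in FSL arrays of P/FC, against 1502, 1972 and 2341 in FRL arrays. In HIP it had 1080.1, 1185 and 1292 in FSL arrays, against 1171, 1368 and 1662 in FRL arrays. Shank1 changed by -0.35 (adjusted p = 4.80e-05) in P/FC and -0.19 (adjusted p = 9.43e-05) in HIP. Shank2 changed by -0.18 (adjusted p = 0.00727) in P/FC and -0.10 (adjusted p = 0.00910) in HIP. Shank3 (-0.22, adjusted p = 0.00300) and the SAPAP adaptor gene Dlgap3 (-0.19, adjusted p = 0.0143) were lower in P/FC, and the HIP change of Shank3 was -0.061 (adjusted p = 0.209).

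Of the Gq pathway, on which mGlu5 acts, 8 genes were kept in each region, and none passed in HIP. In P/FC the G protein subunit gene Gnaq was higher by 0.55 (SE 0.172, adjusted p = 0.0213), while Gna11, encoding its close relative, was lower by -0.23 (adjusted p = 0.0416). Itpr1, the calcium-release channel of the endoplasmic reticulum, was lower by -0.12 (adjusted p = 0.00769). Gnaq was dim, with a lowest, median and highest intensity of 37.7, 87.9 and 147 in FSL arrays against 14.9, 76.8 and 136 in FRL arrays.

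Of the Gi/o pathway, which the other members use, 3 of 8 kept genes were higher and 1 lower in P/FC, and 1 was higher in HIP. Gnai1, an inhibitory G protein subunit, was higher in P/FC by 0.34 (adjusted p = 0.00177). The adenylyl cyclase gene Adcy5, strongly expressed in striatum, was higher by 0.28 (adjusted p = 0.0491) in P/FC and 0.31 (adjusted p = 0.00102) in HIP. Its P/FC change was 0.48 in cohort 1 and 0.084 in cohort 2, beside the striatal markers that were higher in FSL arrays of cohort 1, and their part in it was not tested. Adcy3 was higher in P/FC by 0.28 (adjusted p = 0.0182), and Adcy9 was lower by -0.32 (adjusted p = 0.0233). Of the desensitisation genes only Arrb1, encoding an arrestin, passed, lower in P/FC by -0.24 (adjusted p = 0.0248).

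Of the genes for glutamate supply and clearance, 7 were kept in each region. The astrocyte glutamate transporter gene Slc1a3 was lower by -0.28 (adjusted p = 5.29e-04) in P/FC and -0.10 (adjusted p = 0.00350) in HIP, and Glul, encoding glutamine synthetase of astrocytes, was lower by -0.23 (adjusted p = 6.77e-04) in P/FC and -0.10 (adjusted p = 0.0404) in HIP. Slc1a3 is also on the astrocyte marker list, of which 6 of 6 genes in P/FC and 5 of 6 in HIP were lower. It is therefore part of the astrocyte score itself, so a fit with that score cannot judge its change. Beyond the fit with that score, the part of astrocyte content in these changes was not tested. Slc17a6, encoding the vesicular glutamate transporter of thalamic and other subcortical neurons, was higher in P/FC by 0.36 (adjusted p = 0.0140). With the astrocyte score as a covariate 1 of the 42 genes kept in P/FC passed and none of the 41 kept in HIP. The HIP calls of Slc1a3 and Glul were thus lost. The share of all kept probesets that passed was 1.73% in P/FC and 1.37% in HIP.

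Genes most like each member were sought among 11023 genes kept in both regions by Pearson's r of array deviations from group means over all 78 arrays, given as a description with no test, since the arrays share depth, RNA quality and tissue content. For the brighter Grm5 probeset they were Prkar1a (r = 0.48), Fkbp4 (0.46) and Cmip (0.45). Grm7 had closer partners, Ube2j1 (0.78), Atf2 (0.75) and Akap6 (0.73), as did Grm2, with Tshz3 (0.77), Rap1gap2 (0.74) and Hlf (0.73), and Grm3, with Eml1 (0.76), Ntm (0.73) and Ubn2 (0.69). Grm4 was most like Scn4b (0.50), Camta1 (0.50) and Htra3 (0.49), and the brightest Grm8 probeset most like Serpina4 (0.53), Ncbp3 (0.49) and Cdk10 (0.48). For the middle Grm8 probeset the closest values were higher, at 0.61 to 0.62. The values for the brighter Grm5 probeset, Grm4 and the brightest Grm8 probeset were thus the weaker ones, and some rested on 1 region. Cmip with Grm5 had 0.59 in P/FC and 0.15 in HIP, Camta1 with Grm4 had 0.14 in P/FC and 0.66 in HIP, and Cdk10 with Grm8 had 0.22 in P/FC and 0.67 in HIP.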

How the data were processed

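Total RNA from HIP and P/FC was labelled and hybridised to Affymetrix Rat Genome arrays, 1 array per sample, and each region was processed separately. The deposited values are probeset intensities on a linear scale that the authors extracted and normalised across arrays in Rosetta Resolver; the array medians lay between 56.8 and 66.0 and 16116 of 2425722 values were at or below 0. Groups came from the sample labels (line, region, cohort). Member genes, pathway lists and markers were chosen with earlier results of these data known. Of 31042 probesets, 20832 had 1 symbol in the array annotation and 436 had several, which were not named.

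Intensities under 1 were set to 1 and log2 values were taken. Following the methods of the study, probesets over 30 in 50% or more of the FSL arrays and of the FRL arrays were kept, and each region was fitted with a mean per line and cohort, in limma 3.58.1 (R 4.3.3) with moderated variances. Labelling batch, a further term in the model of the study, is missing from the labels and was not used here. P/FC was set against HIP in 1 fit of 78 arrays taken as independent, though the paper took both regions from the same animals. P-values were adjusted by Benjamini-Hochberg over all kept probesets. Within-array ratios were compared by two-sided exact permutation tests and relations by 100000 resamples (scipy 1.17.1). Fits were tested on simulated data. No 2 arrays of a group held identical values, and p-values of tests within 1 region measure the spread between rats of each cohort. Those of tests between regions make no allowance for arrays that share a rat. The number of arrays limits the precision. All member probesets were named, with up to 4 genes per pathway list and region by smallest adjusted p, and the 3 genes most like the brightest kept probeset of each member. Other filters, scalings, covariates, offsets, a replicate block and leaving out each array were tried.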

Additional observations from a re-analysis of the deposited data

Results flagged for a closer look

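Of 54 groups of 8 to 10 arrays tested over the 9 member probesets, 5 held an array whose gap to the rest was large for its group by Dixon's criterion, which chance alone gives in about 1 in 20 groups. Grm4 was 176 in replicate 2 of the FRL arrays of cohort 2 in HIP, where the other arrays had 86.2 to 118. The brightest Grm8 probeset was 91.5 in replicate 2 of the FSL arrays of cohort 1 in HIP, where the others had 120.0 to 146. The middle Grm8 probeset was 37.1 in replicate 1 of the FSL arrays of cohort 2 in HIP, where the others had 48.8 to 58.0. The dimmest Grm8 probeset was 18.4 in replicate 1 of the FSL arrays of cohort 2 in P/FC, where the others had 28.0 to 39.2, and 13.0 in replicate 4 of the FRL arrays of cohort 2 in P/FC, where the others had 22.5 to 30.5. No call of a member over both cohorts in HIP changed when any 1 of these HIP arrays was left out.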

How the results depend on the processing

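The lower Grm5 level of the brighter probeset over both cohorts kept its direction and call under all 12 alternatives and in all 39 fits that left out 1 array, with changes of -0.78 to -0.61 in P/FC and -0.89 to -0.66 in HIP across the alternatives. The count of members called in P/FC over both cohorts was 1 in place of 3 with the Gapdh or the Actb ratio as a covariate, 2 with the astrocyte score, 4 after quantile normalisation, with 16 added before the logarithm or with each cohort fitted by itself, and 2 to 4 with 1 array left out. Of all kept probesets 3.81% passed with the Gapdh ratio, 13.2% with the Actb ratio and 1.73% with the astrocyte score, against 18.6%. The share was 19.2% after quantile normalisation, 19.1% with 16 added and 18.8% with each cohort fitted by itself. In HIP 14.6% of all tested passed with a filter of 100 and 7.25% with 1 value per gene, against 7.33%. The count of members there was 1 in place of 2 with either, the filter having removed the dimmer probeset. In HIP of cohort 1 it was 0 in place of 1 with each cohort fitted by itself, the replicate block or the tissue scores and 2 with 16 added before the logarithm; in cohort 2 it was 2 in place of 1 after quantile normalisation, with each cohort fitted by itself or with the Actb ratio. With 1 array left out these HIP counts were 1 to 2 in each cohort. In P/FC of cohort 1 it was 1 in place of 0 with the filter of 100 or the astrocyte score, and 0 to 1 with 1 array left out (1 without replicate 7 of the FRL or replicate 1 or 3 of the FSL arrays of that cohort), and in cohort 2 it was 2 in place of 1 with each cohort fitted by itself. The pathway genes called in HIP fell to 1 with the Actb ratio and 0 with the astrocyte score, against 5, and in P/FC to 1 with the Gapdh ratio or the astrocyte score and 5 with the tissue scores, against 15. The share of all kept probesets called was 2.04% with the Actb ratio and 1.37% with the astrocyte score in HIP, against 7.33%. In P/FC it was 11.8% with the tissue scores, 3.81% with the Gapdh ratio and 1.73% with the astrocyte score, against 18.6%. Between regions the filter of 100 left 2 calls, against 6. The cause of these changes was not tested, except that the filter leaves fewer probesets.

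Some changes that had not passed the test turned in sign, and so did the P/FC change of the middle Grm8 probeset, which had passed. With the astrocyte score the HIP changes were 0.036 for Grm3, -0.027 for Grm7 and -0.0084 for the middle Grm8 probeset, and the P/FC changes were 0.0091 for the brightest and -0.0072 for the middle Grm8 probeset. With the Actb ratio Grm4 in HIP was 0.011, and with the Gapdh ratio the brightest Grm8 probeset in P/FC was 0.030. With 1 array left out the middle Grm8 probeset in HIP ranged over -0.015 to 0.060 and the dimmer Grm5 probeset in P/FC of cohort 1 over -0.080 to 0.073. The astrocyte score, the tests of probeset ratios under other scalings and the block across regions were chosen after seeing the data.

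The replicate numbers in the labels were not taken to pair the arrays, since the labels tie them to no shared litter, batch or rat. Correlations of arrays with the same number cannot decide this, since arrays of unlike number were not compared. Deviations of FSL and FRL arrays with the same number correlated with a median of 0.12 over 34 pairs, 18 of them over 0.1, and those of P/FC and HIP arrays with a median of 0.03 over 39 pairs. In P/FC of cohort 2 all 8 pairs of FSL and FRL arrays correlated above 0, at 0.072 to 0.39. With the number as a replicate block 3901 probesets passed in P/FC and 2092 in HIP, against 4166 in P/FC and 1586 in HIP without it. The brighter Grm5 probeset changed by -0.67 in P/FC and -0.70 in HIP over both cohorts, with 3 and 2 members called as before, while its change in HIP of cohort 1 was -0.52 (limma, adjusted p = 0.0611). Under that block the middle Grm8 probeset in HIP was -4.08e-04 and the dimmer Grm5 probeset in P/FC of cohort 1 was 0.18. Grm5's dimmer probeset, the middle Grm8 probeset in HIP and the dimmest one lay near the filter of 30, and small changes in them are the least certain.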
